A study of Homo sapiens with 4 samples.

Results

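The genes described here are 38 collagen chains and 11 proteins that cross-link, modify, fold or trim collagen, measured in PC-3 cells and in PC-3-BM, a bone-metastatic derivative. Each was represented by its brightest probe set among those that the array's annotation gives exactly 1 gene symbol, and all 49 were found, of 18417 genes measured in this way. PC-3 is an established human prostate cancer line that came from a bone metastasis, labelled as having poor metastatic potential. PC-3-BM is labelled as having high potential. Per the study's methods it is a clone recovered from bone lesions of nude mice, after PC-3 cells had been injected into the heart and passed through mice again. Both lines carried firefly luciferase and green fluorescent protein (GFP). The labels speak of growth in mice and the methods of culture, so it was not settled in which state the cells gave their RNA. Each line had 2 arrays, numbered in the labels with no word on whether the cultures were separate. The p-values therefore reflect the scatter of these 4 arrays alone and may not include that between cultures.

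Collagens are extracellular proteins whose chains wind around each other in a helix that is rich in glycine and proline. Fibrillar collagens such as collagen I form the tension-bearing fibres of bone and other connective tissue, collagen IV forms the network of basement membranes, and collagen VI forms beaded microfilaments around cells. New chains are hydroxylated and folded in the endoplasmic reticulum, their propeptides are trimmed outside the cell, and lysyl oxidases then join lysines of neighbouring molecules into covalent cross-links. Bone matrix is built largely on collagen I, the setting in which the question of this comparison, which transcripts differ between cells of poor and high ability to colonise bone, was asked.

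The collagen IV genes lie in head-to-head pairs, with the start sites of the partners facing away from each other across a short stretch of shared promoter. They are shown first because COL4A1 moved with COL4A2, and COL4A5 with COL4A6, on these arrays. COL4A3 and COL4A4 were dim in both lines and did not pass the test. The windows below are from RefSeq on GRCh38.p14, 5′ to 3′ on the plus strand, each 300 bases long. The window of COL4A1 and COL4A2 is chr13:110307034-110307333, that of COL4A4 and COL4A3 is chr2:227164374-227164673, and that of COL4A6 and COL4A5 is chrX:108439588-108439887. Capitals mark the bases between the annotated start sites of the partners, and the gene named first is read from the minus strand.
COL4A1 and COL4A2: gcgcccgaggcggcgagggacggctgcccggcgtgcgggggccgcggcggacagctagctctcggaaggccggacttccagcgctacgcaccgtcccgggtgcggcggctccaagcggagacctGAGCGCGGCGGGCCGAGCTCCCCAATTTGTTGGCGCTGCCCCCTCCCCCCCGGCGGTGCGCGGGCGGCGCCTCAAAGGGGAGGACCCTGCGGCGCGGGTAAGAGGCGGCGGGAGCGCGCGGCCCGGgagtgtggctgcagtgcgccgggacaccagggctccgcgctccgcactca
COL4A4 and COL4A3: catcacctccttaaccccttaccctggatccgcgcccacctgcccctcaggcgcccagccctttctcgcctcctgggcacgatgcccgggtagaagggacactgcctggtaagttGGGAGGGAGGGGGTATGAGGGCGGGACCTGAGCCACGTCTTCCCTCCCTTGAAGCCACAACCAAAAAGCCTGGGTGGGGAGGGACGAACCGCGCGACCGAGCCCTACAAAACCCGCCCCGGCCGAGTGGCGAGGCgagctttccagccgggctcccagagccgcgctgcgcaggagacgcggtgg
COL4A6 and COL4A5: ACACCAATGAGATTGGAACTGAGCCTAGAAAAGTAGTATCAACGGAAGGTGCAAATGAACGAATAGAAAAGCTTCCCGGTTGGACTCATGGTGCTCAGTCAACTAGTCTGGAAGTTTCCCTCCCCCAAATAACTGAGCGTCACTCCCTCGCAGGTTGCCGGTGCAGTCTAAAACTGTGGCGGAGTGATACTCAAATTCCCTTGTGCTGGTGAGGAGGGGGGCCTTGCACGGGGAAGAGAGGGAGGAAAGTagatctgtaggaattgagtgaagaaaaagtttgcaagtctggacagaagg

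The stretch between the start sites was 126 bases for COL4A1 and COL4A2 and 135 bases for COL4A4 and COL4A3. For COL4A6 and COL4A5 it was 379 bases, of which the window holds 250. COL4A6 has 2 promoter windows in RefSeq, and its distance was taken from the annotated end of the gene. The windows differed in composition. GC content was 77.7%, 67.7% and 49.3%, in the order printed, against a median of 58.7% over 35116 promoter windows of the same length (quartiles 47.0% and 68.0%). The letters CCAAT, searched on both strands, occurred once in the first window, at base 146 counted from the window's 5′ end. They occurred on both strands of the COL4A6 and COL4A5 window, with hits starting at bases 4 and 12, and had no match in the COL4A4 and COL4A3 window. The letters GGGCGG occurred once in the first window, at base 186, on either strand of the second, at bases 134 and 228, and had no match in the COL4A6 and COL4A5 window. All of these matches lay between the start sites. CCAAT was held by 34.6% and GGGCGG by 45.0% of all windows, and TATAAA, held by 11.5% of them, had no match in the windows shown.

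Of the 49 genes, 10 rose and 8 fell in PC-3-BM, and 31 did not pass the test (limma, Benjamini-Hochberg adjusted p below 0.05 over all 33297 probe sets). Among all genes 29.6% passed, 14.8% in each direction, against 36.7% of the collagen set. The genes that rose were COL4A1, COL4A2, COL6A2, COL6A3, COL1A1, COL5A2, COL12A1, LOX, LOXL2 and PLOD1. Those that fell were COL4A5, COL4A6, COL8A1, COL8A2, LOXL3, LOXL4, PCOLCE2 and SERPINH1. Differences are given as PC-3-BM minus PC-3 on the log2 scale of the deposited expression values, and they ran from −1.64 to 2.50 with a median of −0.03, beside −0.04 over all genes. The arrays of the lines did not overlap in 36 of the 49 genes, as in 70.6% of all genes. An absolute difference of at least 0.5 together with a passed test was found for 11 genes, which is 22.4% of the set, against 16.6% of all genes. For 5 of them (COL4A1, COL4A2, COL6A3, LOX and SERPINH1) the absolute difference was above 1, as for 3.76% of all genes. At the study's own thresholds, an adjusted p below 0.001 and an absolute difference above 2, 1 gene of the set passed (COL6A3). In the same fit 15 of all 18417 genes (0.0814%) passed. That is fewer than the study reported at these thresholds, and the reason was not tested.

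The counts were also read against all genes split in 2 by brightness, which does not match brightness within either part. Of the 30 genes with a mean at or above the median of all values (6.69), 13 passed the test, where 41.5% of all genes of that brightness did. Of the 19 dimmer genes, 5 passed, where 11.8% of all dimmer genes did. COL14A1 was the 1 gene whose mean lay below the lower quartile of all values (5.02). The other dimmer genes of the set lay between that quartile and the median, a range to which the 11.8% is not restricted. The counts depended on the number of arrays: without PC-3 array 1, or without PC-3 array 2, 6 genes rose and 2 fell, and without PC-3-BM array 1, or without PC-3-BM array 2, 7 rose and 4 fell. The calls of COL1A1, COL4A1, COL4A2, COL4A6, COL6A3, LOX, LOXL2 and SERPINH1 held in all 14 alternative analyses that were run. With 2 arrays against 2, an exact permutation test cannot give a two-sided p below 0.333.

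**Figure D1:**
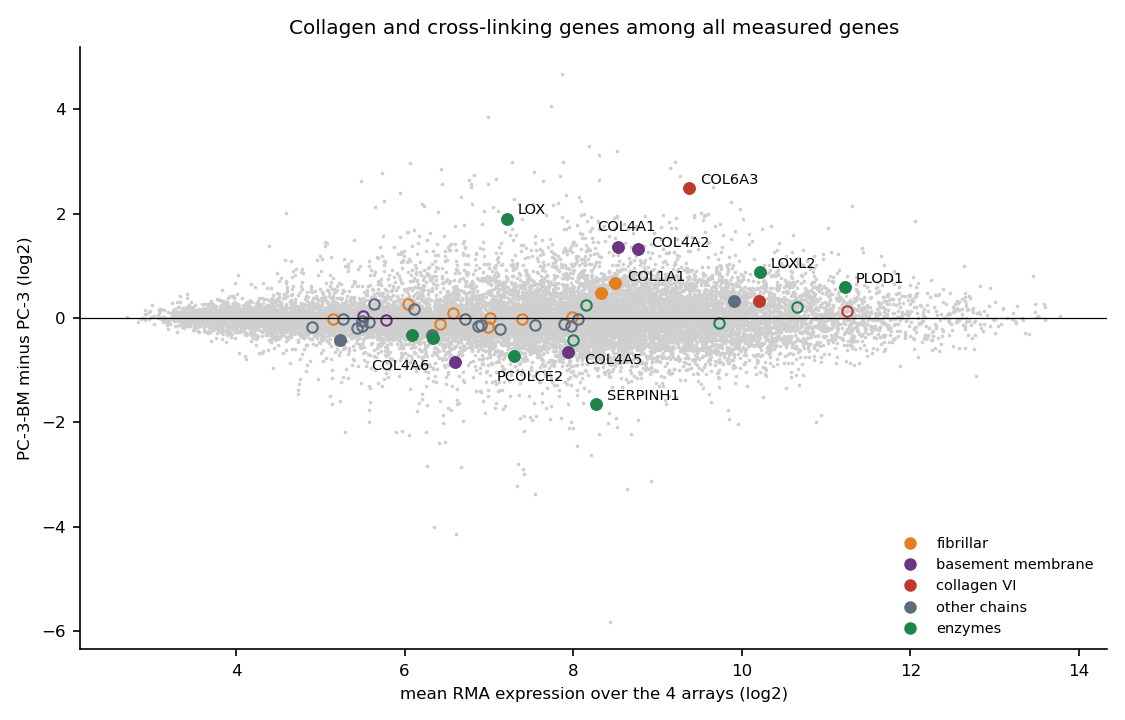
Mean RMA expression over the 4 arrays (log2, horizontal axis) against the difference PC-3-BM minus PC-3 (log2, vertical axis). Grey points are all 18417 genes, coloured circles are the 49 collagen and cross-linking genes by class, and filled circles passed an adjusted p below 0.05. COL6A3 lies highest at 2.50 and SERPINH1 lowest at −1.64.

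The basement membrane chains changed in opposite directions by pair: COL4A1 and COL4A2 rose, COL4A5 and COL4A6 fell, and COL4A3 and COL4A4 did not pass the test. COL4A1 and COL4A2 encode the chains that assemble with each other in nearly all basement membranes. COL4A1 read 7.91 and 7.78 on the PC-3 arrays and 9.28 and 9.13 on the PC-3-BM arrays. Both PC-3-BM arrays thus lay well above both PC-3 arrays, a 2.56-fold increase (difference 1.36, SE 0.09, limma, adjusted p = 0.00242). COL4A2 read 8.14 and 8.08 in PC-3 and 9.42 and 9.45 in PC-3-BM. It rose 2.50-fold, again with no overlap (difference 1.32, SE 0.07, limma, adjusted p = 0.0016).

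COL4A5 and COL4A6 share a promoter region on chromosome X, and their chains assemble with each other in the basement membranes of smooth muscle and some epithelia. COL4A5 read 8.29 and 8.22 in PC-3 and 7.66 and 7.56 in PC-3-BM. All PC-3-BM values were the lower ones, 1.57-fold below PC-3 (difference −0.65, SE 0.08, limma, adjusted p = 0.00702). The call of COL4A5 was lost without PC-3 array 1 and without PC-3 array 2, with its direction kept. COL4A6 read 7.03 and 6.99 in PC-3 and 6.17 and 6.18 in PC-3-BM, a 1.78-fold decrease (difference −0.83, SE 0.07, limma, adjusted p = 0.00328). The SD over its PC-3 arrays was 0.02.

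COL4A3 and COL4A4, which assemble with COL4A5 in the filtration barrier of the kidney, were dim in both lines. COL4A3 read 5.83 and 5.78 in PC-3 and 5.78 and 5.75 in PC-3-BM. The lines overlapped, with a difference of −0.04 (95% interval −0.22 to 0.14, limma, adjusted p = 0.725). COL4A4 read 5.53 and 5.45 in PC-3 and 5.53 and 5.51 in PC-3-BM. Here too the lines overlapped, with a difference of 0.03 (95% interval −0.15 to 0.22, limma, adjusted p = 0.796). For COL4A3 and COL4A4 an increase or a decrease of more than about 0.22 lies outside the intervals.

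**Figure D2:**
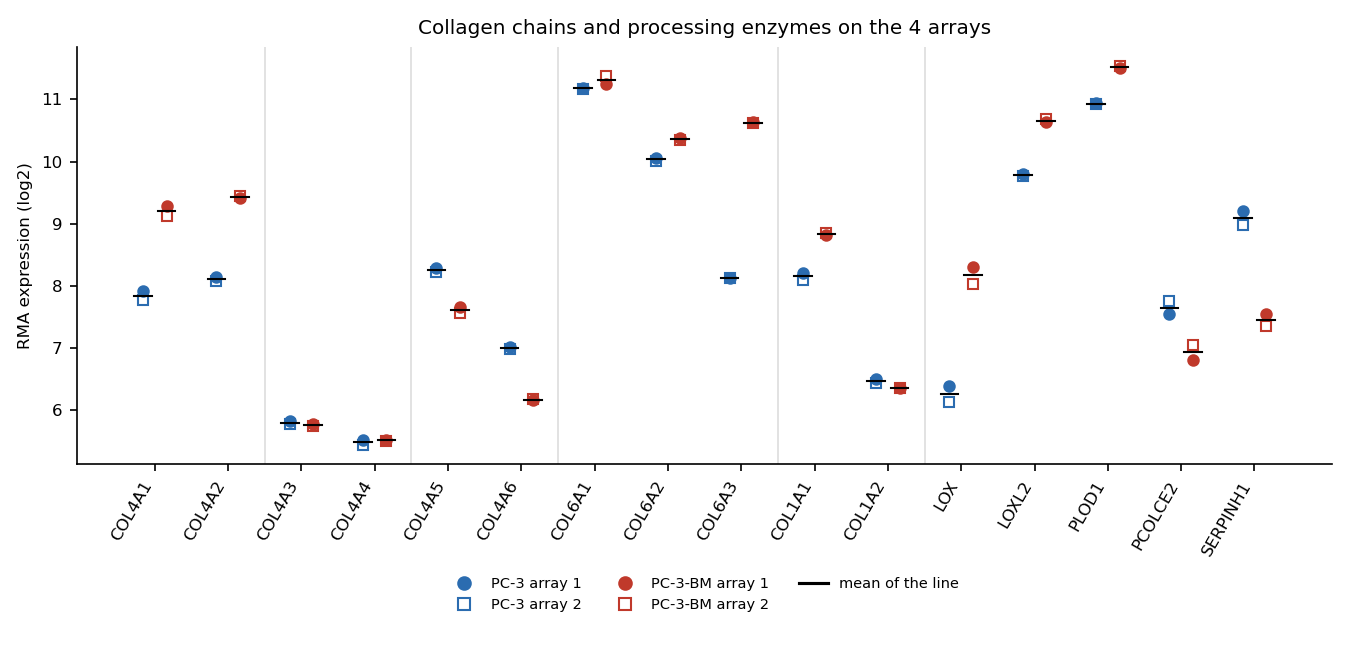
RMA expression (log2, vertical axis) of 16 collagen and collagen-processing genes on each array. Blue marks are PC-3 and red marks PC-3-BM, circles and squares are arrays 1 and 2 of each line, and black bars are the mean of the line. COL4A1 and COL4A2 stand higher in PC-3-BM, COL4A5 and COL4A6 lower, and COL4A3 and COL4A4 at the same height in both lines, while COL6A3 and LOX show the widest gains.

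Collagen VI is a heterotrimer of different chains, and its chains differed in how far they moved. COL6A3, which encodes the long chain, read 8.14 and 8.13 in PC-3 and 10.64 and 10.62 in PC-3-BM. This was a 5.65-fold increase, with an SD of 0.01 over the PC-3 and 0.02 over the PC-3-BM arrays (difference 2.50, SE 0.07, 95% interval 2.32 to 2.67, limma, adjusted p = 0.000833). COL6A2 read 10.06 and 10.01 in PC-3 and 10.38 and 10.35 in PC-3-BM. The arrays did not overlap and the gene rose 1.26-fold (difference 0.33, SE 0.07, limma, adjusted p = 0.0284), a call that was lost when any 1 of the 4 arrays was left out and when the array number was fitted as a block. COL6A1 read 11.19 and 11.17 in PC-3 and 11.25 and 11.37 in PC-3-BM. Its arrays did not overlap either, but the difference of 0.13 did not pass the test (95% interval −0.07 to 0.33, limma, adjusted p = 0.300). The intervals of COL6A2 (0.16 to 0.51) and COL6A1 both lie below that of COL6A3.

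Of the 10 fibrillar chains, 2 rose, 0 fell and 8 did not pass the test, with a median difference of 0.01. The calls made up 20.0% of the class, against 29.6% of all genes. COL1A1 encodes the more abundant chain of collagen I, the main protein of bone matrix. It read 8.21 and 8.10 in PC-3 and 8.83 and 8.85 in PC-3-BM. It rose 1.60-fold with no overlap between the lines (difference 0.68, SE 0.07, limma, adjusted p = 0.00586). COL1A2, the other chain of collagen I, read 6.50 and 6.44 in PC-3 and 6.36 and 6.36 in PC-3-BM. Its difference was −0.11 (95% interval −0.29 to 0.07, limma, adjusted p = 0.336), so the upper end of its interval lay below the lower end of that of COL1A1 (0.49 to 0.87). The chains of collagen I are made by separate genes, COL1A1 on chromosome 17 and COL1A2 on chromosome 7.

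COL5A2, a chain of collagen V, which joins collagen I in mixed fibrils and limits their width, read 8.13 and 8.05 in PC-3 and 8.52 and 8.61 in PC-3-BM. It rose 1.39-fold (difference 0.48, SE 0.08, limma, adjusted p = 0.0147), and the call was lost when any 1 array was left out. Its partner chains COL5A1 and COL5A3 differed by −0.01 and −0.17 and did not pass the test. COL3A1, whose gene lies next to COL5A2 on chromosome 2, differed by 0.10 (limma, adjusted p = 0.377). The cartilage chains COL2A1 and COL11A1 and the later-described fibrillar chains COL24A1 and COL27A1 did not pass the test either, and the 8 fibrillar genes without a call ran from −0.17 to 0.27. COL24A1 came closest, at 5.88 and 5.94 in PC-3 and 6.19 and 6.16 in PC-3-BM (difference 0.26, limma, adjusted p = 0.0567).

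**Figure D3:**
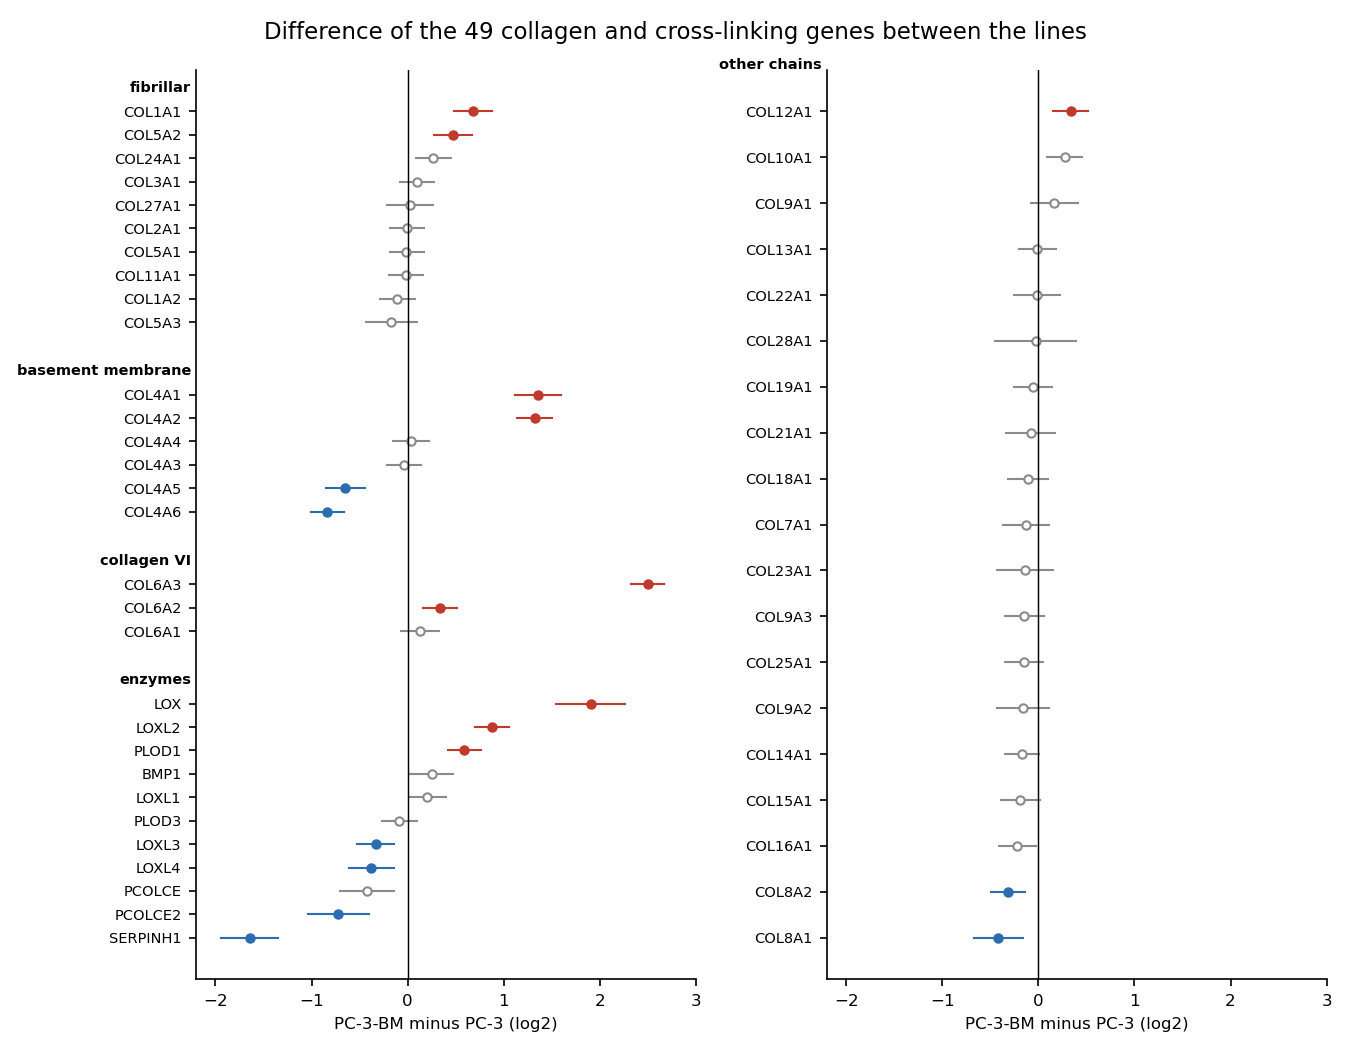
Difference PC-3-BM minus PC-3 (log2, horizontal axis) of the 49 genes by class, with 95% intervals of the limma fit as bars. Filled red points rose and filled blue points fell at an adjusted p below 0.05, and open grey points did not pass. The other chains in the right panel lie between −0.42 and 0.34, a narrower range than the classes in the left panel.

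The 19 other chains, which are fibril-associated, network-forming, anchoring, transmembrane and multiplexin collagens, gave 3 calls. COL12A1 rose and COL8A1 and COL8A2 fell, and 16 did not pass the test, 15.8% of the class against the 29.6% of all genes. Their median difference was −0.13, beside −0.04 over all genes. Of the 19 differences 16 were negative, most of them without a call, and the share of negative differences over all genes was not counted. With the arrays centred on their medians, 2 of the 19 rose and 0 fell. COL12A1 encodes a collagen that binds to the surface of collagen I fibrils. It read 9.74 and 9.75 in PC-3 and 10.05 and 10.11 in PC-3-BM, a 1.26-fold increase (difference 0.34, SE 0.07, limma, adjusted p = 0.0284). The call was lost when any 1 array was left out and when the array number was fitted as a block.

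Collagen VIII forms a hexagonal lattice in the matrix below the corneal endothelium and in vessel walls, from the products of COL8A1 and COL8A2. COL8A1 read 5.45 and 5.43 in PC-3 and 5.13 and 4.91 in PC-3-BM (difference −0.42, SE 0.10, limma, adjusted p = 0.0411). The second PC-3-BM array gave a value under the lower quartile (5.02), and the call was lost without either PC-3 array and without PC-3-BM array 2. The call of COL8A1 was also lost with the arrays centred on their medians and with an intensity trend in the variance. COL8A2 read 6.49 and 6.48 in PC-3 and 6.19 and 6.15 in PC-3-BM (difference −0.32, SE 0.07, limma, adjusted p = 0.0318). Its call was lost when any 1 array was left out, with the arrays centred on their medians and with the array number fitted as a block. Both genes of the pair thus read lower on both PC-3-BM arrays. COL10A1, the related short chain of growth plate cartilage, read higher there, at 5.50 and 5.49 in PC-3 and 5.80 and 5.73 in PC-3-BM, and stayed just outside the threshold (difference 0.28, limma, adjusted p = 0.0502).

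None of the remaining chains passed the test. They were the fibril-associated COL9A1, COL9A2, COL9A3, COL14A1, COL16A1, COL19A1, COL21A1 and COL22A1, the anchoring fibril chain COL7A1, the multiplexins COL15A1 and COL18A1, the transmembrane chains COL13A1, COL23A1 and COL25A1, and COL28A1. Their differences ran from −0.22 for COL16A1 to 0.17 for COL9A1. COL28A1 had the widest spread between replicates in the set, at 5.42 and 5.15 in PC-3 and 5.08 and 5.45 in PC-3-BM, with an SD of 0.26 over the PC-3-BM arrays against a median SD of 0.06 over all 49 genes in that line. The 95% interval of COL28A1 ran from −0.45 to 0.40.

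Among the lysyl oxidases, the copper enzymes that start cross-linking, LOX and LOXL2 rose and LOXL3 and LOXL4 fell, and LOXL1 did not pass the test. LOX, the founding member, which acts on collagen and elastin, read 6.40 and 6.13 in PC-3 and 8.30 and 8.04 in PC-3-BM. It rose 3.75-fold with a wide gap between the lines (difference 1.91, SE 0.14, 95% interval 1.55 to 2.27, limma, adjusted p = 0.00271). LOXL2, an enzyme with scavenger receptor domains that cross-links collagen IV, read 9.80 and 9.76 in PC-3 and 10.64 and 10.68 in PC-3-BM. It rose 1.84-fold (difference 0.88, SE 0.07, limma, adjusted p = 0.00309).

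LOXL3 and LOXL4 carry the same scavenger receptor domains as LOXL2 and read lower in PC-3-BM. LOXL3 read 6.30 and 6.21 in PC-3 and 5.94 and 5.90 in PC-3-BM, a 1.26-fold decrease (difference −0.33, SE 0.07, limma, adjusted p = 0.0336). LOXL4 read 6.53 and 6.52 in PC-3 and 6.24 and 6.05 in PC-3-BM, a 1.30-fold decrease (difference −0.38, SE 0.09, limma, adjusted p = 0.0436). Both calls were lost when any 1 array was left out and when the array number was fitted as a block. That of LOXL3 was also lost with an intensity trend in the variance, and that of LOXL4 under both rescalings of the arrays. LOXL1, an oxidase needed for elastic fibres, read 10.60 and 10.50 in PC-3 and 10.72 and 10.78 in PC-3-BM (difference 0.20, 95% interval 0.01 to 0.40, limma, adjusted p = 0.124).

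PLOD1, a lysyl hydroxylase that modifies the helical lysines from which stable cross-links form, read 10.94 and 10.93 in PC-3 and 11.51 and 11.54 in PC-3-BM. It rose 1.51-fold (difference 0.59, SE 0.07, limma, adjusted p = 0.00632), and the call was lost without PC-3 array 1 and without PC-3 array 2. PLOD3, which hydroxylates and also glycosylates lysines, did not pass the test (difference −0.09, 95% interval −0.27 to 0.10, limma, adjusted p = 0.449).

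SERPINH1, also called HSP47, is the chaperone that binds the folded collagen helix in the endoplasmic reticulum, and it fell while COL4A1, COL4A2, COL6A3 and COL1A1 rose. It read 9.20 and 8.98 in PC-3 and 7.55 and 7.36 in PC-3-BM. The lines lay far apart, a 3.12-fold decrease (difference −1.64, SE 0.11, 95% interval −1.94 to −1.34, limma, adjusted p = 0.00254). No other gene of the set fell as far.

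Removal of the carboxy-terminal propeptide of fibrillar collagens is the work of BMP1, and PCOLCE and PCOLCE2 are secreted proteins that speed it up. PCOLCE2 read 7.55 and 7.76 in PC-3 and 6.81 and 7.06 in PC-3-BM. It fell with no overlap between the lines, 1.65-fold (difference −0.72, SE 0.12, limma, adjusted p = 0.0174), and the call was lost without PC-3 array 1, without PC-3 array 2 and without PC-3-BM array 1. PCOLCE read 8.33 and 8.09 in PC-3 and 7.72 and 7.85 in PC-3-BM, just outside the threshold (difference −0.43, SE 0.11, limma, adjusted p = 0.0502). BMP1 read 8.09 and 7.96 in PC-3 and 8.34 and 8.21 in PC-3-BM, without a call (difference 0.25, SE 0.09, limma, adjusted p = 0.113). BMP1 was the 1 gene of the set with a second probe set, which was dimmer and differed by −0.05 (limma, adjusted p = 0.768).

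The changed genes differed in how their neighbours on the chromosome behaved. For each, the 5 measured genes on either side in RefSeq gene order were read from the same fit, other genes of the set left out. Beside COL4A1 and COL4A2 on chromosome 13, 5 of 10 neighbours rose and 0 fell, with a median difference of 0.35, among them NAXD (0.90) and CARS2 (0.51). Beside COL6A3 on chromosome 2, 5 of 10 rose and 0 fell, with a median of 0.54 and a highest value of 1.46 for RBM44. Beside COL12A1 on chromosome 6, 6 of 10 rose and 0 fell, with a median of 0.49, and all 6, led by SLC17A5 (1.97) and MYO6 (1.70), differed by more than COL12A1 itself. Of all genes 14.8% rose and 14.8% fell.

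Beside COL4A5 and COL4A6, 0 of 10 neighbours rose and 1 fell, with a median difference of −0.14. Beside LOX, 2 rose and 0 fell with a median of 0.04, and beside SERPINH1, 2 rose and 1 fell with a median of 0.01. Beside COL1A1, 0 rose and 3 fell with a median of −0.17, opposite to COL1A1. Beside COL8A1, 1 rose and 4 fell, with a median of −0.19, and beside LOXL2, 3 rose and 2 fell, with a median of 0.15. Of the 10 neighbours of COL5A2, 3 rose and 0 fell, with TFPI (1.64) and GULP1 (1.01) differing by more than COL5A2 itself. COL8A2 and LOXL4, which fell, had 4 and 3 rising neighbours and 0 falling. For COL6A2 3 rose and 2 fell, and for LOXL3 1 rose and 2 fell. For PLOD1 1 rose and 1 fell, and for PCOLCE2 2 rose and 1 fell. Beside COL4A3 and COL4A4, neither of which passed the test, 4 neighbours rose and 1 fell, with a median of 0.17. Copy number was not measured here, and the part of the chromosomal region in any of these differences was not tested.

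**Figure D4:**
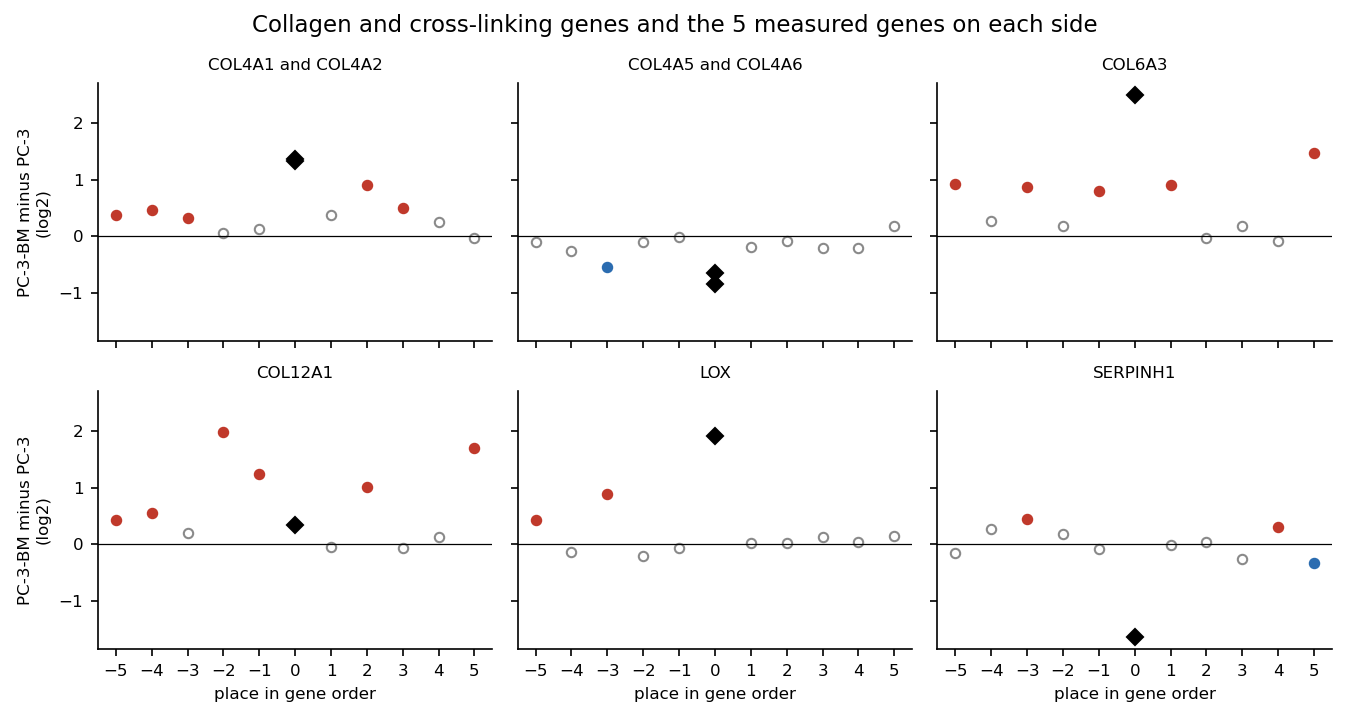
Difference PC-3-BM minus PC-3 (log2, vertical axis) of selected collagen and cross-linking genes (black diamonds) and of the 5 measured genes on each side in gene order (circles, horizontal axis in places, not in bases). Filled red circles rose, filled blue circles fell and open circles did not pass an adjusted p below 0.05. Raised neighbours stand around COL4A1 and COL4A2, COL6A3 and COL12A1, and LOX and SERPINH1 stand apart from most of theirs.

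Of 75 measured genes on the lists of the wider collagen pathway, 22 rose and 8 fell, 40.0% against 29.6% of all genes, with a median difference of 0.06. These lists were not matched for brightness: of all genes at or above the median of all values 41.5% passed, and of dimmer genes 11.8%. The lists were also chosen with earlier results of these data known. Among 16 genes of hydroxylation and folding, 6 rose and 0 fell (37.5% called). P4HA2, a catalytic subunit of the prolyl hydroxylase that stabilises the helix, rose by 0.96 (SE 0.07), P3H2 by 0.82 (SE 0.07) and P3H1 by 0.56 (SE 0.07), both of them enzymes that hydroxylate proline at another carbon. Among 11 genes of export from the endoplasmic reticulum, 1 rose and 3 fell (36.4% called). SEC24D, a coat subunit of transport vesicles, rose by 0.61 (SE 0.07), KLHL12, an adaptor that enlarges these vesicles, fell by 0.44 (SE 0.07), and SAR1A, the GTPase that starts the coat, fell by 0.40 (SE 0.07). Among 6 other genes of propeptide removal, FURIN, the protease that activates the precursors of such enzymes, rose by 0.47 (SE 0.07) and 5 did not pass. Among 5 further collagen chains 0 rose and 0 fell at an adjusted p below 0.05 in limma, with COL11A2 at −0.09 and COL26A1 at −0.22.

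Of 9 collagen receptors, 5 rose and 1 fell, 66.7% against 29.6% of all genes. ITGA10 and ITGA2 encode integrin subunits that bind collagen, and they rose by 2.52 (SE 0.07) and 1.26 (SE 0.07), while MRC2, an endocytic receptor that takes up collagen fragments, rose by 0.56 (SE 0.07). ITGA10 read 5.56 and 5.50 in PC-3 and 8.07 and 8.03 in PC-3-BM. Of 12 small proteoglycans and fibril regulators, 3 rose and 1 fell (33.3% called). SPARC, a collagen-binding glycoprotein of bone, read 10.35 and 10.08 in PC-3 and 8.91 and 8.83 in PC-3-BM and fell by 1.34 (SE 0.11). LUM, which spaces fibrils, rose by 0.54 (SE 0.09) from values below the lower quartile that stayed below it, and THBS1 rose by 0.44 (SE 0.07).

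The partners of collagen IV in basement membranes also split, with 4 of 9 rising and 3 falling, 77.8% called against 29.6% of all genes. LAMA4, a laminin chain, read 6.96 and 7.04 in PC-3 and 8.24 and 8.05 in PC-3-BM and rose by 1.15 (SE 0.09), and NID1, which links laminin to collagen IV, rose by 0.63 (SE 0.10). HSPG2, the proteoglycan perlecan, read 9.29 and 9.10 in PC-3 and 8.45 and 8.33 in PC-3-BM and fell by 0.80 (SE 0.10). Among 7 genes of collagen degradation, 2 rose and 0 fell (28.6% called). CTSK, the acid protease cathepsin K, rose by 1.46 (SE 0.10), and MMP14, a membrane-bound collagenase, by 0.64 (SE 0.08). The limma adjusted p of the pathway genes named as rising or falling lay between 0.00087 for ITGA10 and 0.0175 for SAR1A. Leaving out 1 array reduced the pathway counts to between 7 and 14 genes that rose and between 2 and 3 that fell, the lowest of the former without PC-3 array 1.

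**Figure D5:**
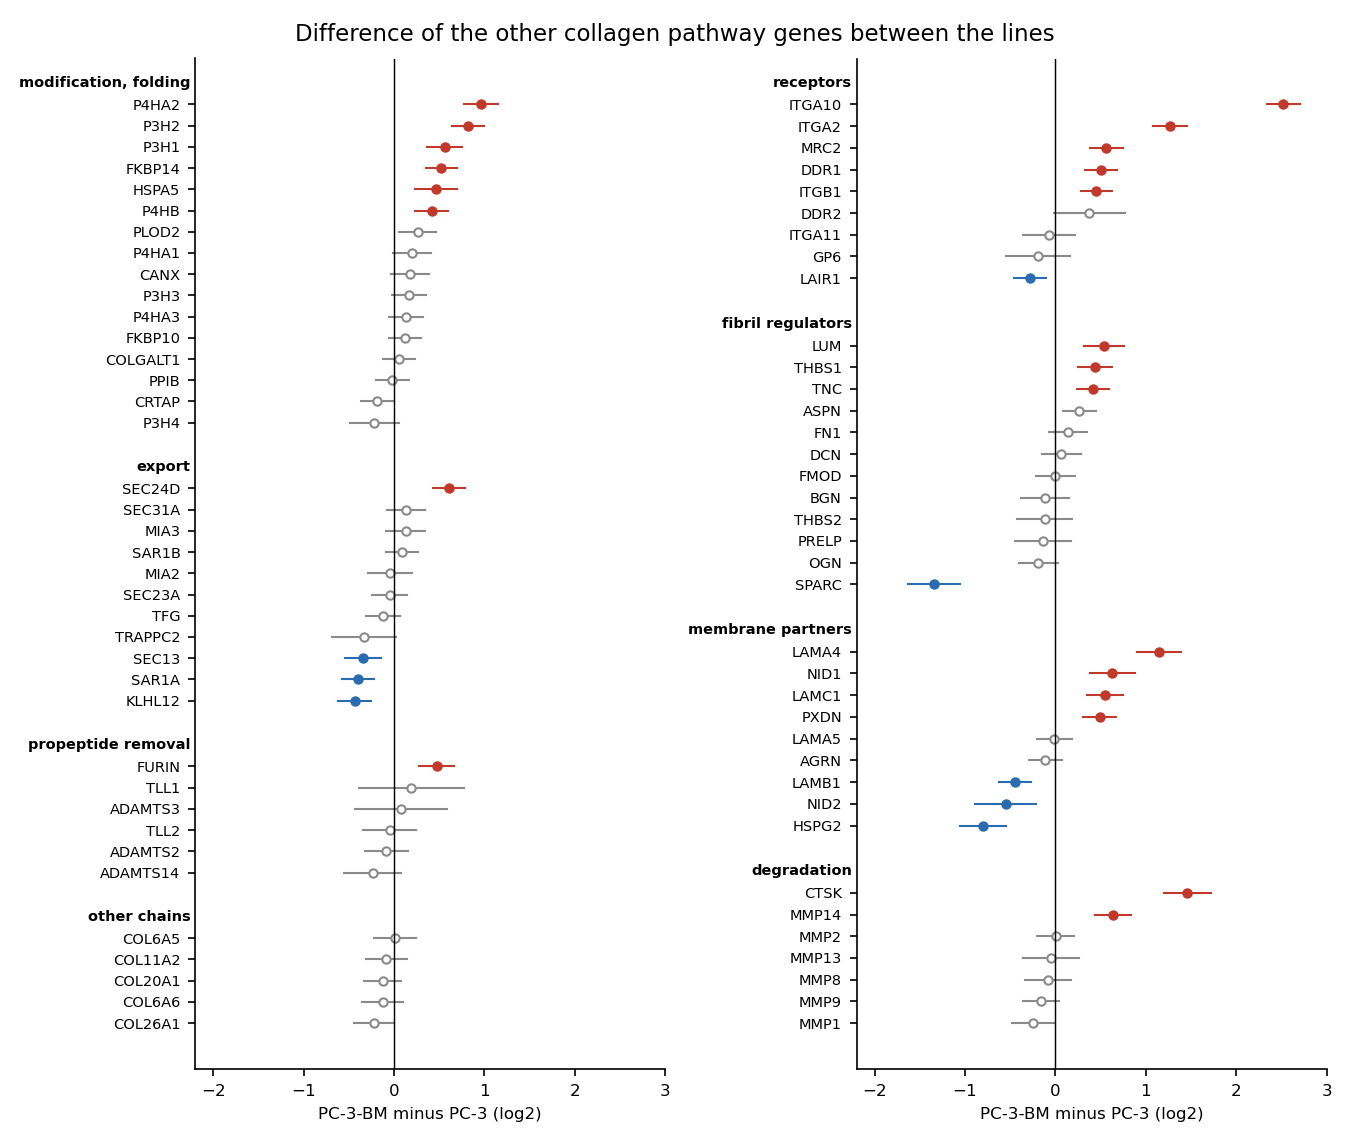
Difference PC-3-BM minus PC-3 (log2, horizontal axis) of 75 other genes of the collagen pathway by role, with 95% intervals of the limma fit as bars. Filled red points rose and filled blue points fell at an adjusted p below 0.05, and open grey points did not pass. ITGA10 lies highest at 2.52 and SPARC lowest at −1.34.

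Fibroblasts and osteoblasts make most fibrillar collagen in tissue, so markers of other cells were read beside these genes. Per the study's methods, cells recovered from bone were kept under geneticin and, once grown out, sorted by their GFP fluorescence before reinjection. Whether the samples on these arrays held mouse RNA was not tested. The mean level of 10 fibroblast and stromal markers was 5.37 and 5.36 on the PC-3 arrays and 5.36 and 5.38 on the PC-3-BM arrays, with 1 of the 10 rising (LUM, 0.54) and 2 falling (PDGFRA, −0.34, and PDPN, −0.31), and DCN, LUM, POSTN and FAP lay below the lower quartile of all values on every array. Of 5 osteoblast markers RUNX2 rose (0.76), with the list at 6.32 and 6.39 in PC-3 and 6.47 and 6.51 in PC-3-BM and IBSP below that quartile. Of 8 endothelial markers PECAM1 rose (0.45, and 1.87 on its dimmer probe set), with the list at 6.23 and 6.21 against 6.25 and 6.22 and TEK and EMCN below the quartile. Of 9 blood and marrow markers CD68 rose (0.72), with the list at 5.95 and 5.89 against 5.94 and 5.93 and PTPRC, CD3E and LYZ below it. Other markers of these lists were bright: PDGFRA, KDR and CD68 lay above the upper quartile of all values (8.54) on every array. KDR read 10.94 and 10.80 in PC-3 and 10.76 and 10.65 in PC-3-BM. Of 6 markers of the carcinoma cells 4 fell, led by KRT8 (−2.03), EPCAM (−1.30, and −1.98 on its dimmer probe set) and KRT18 (−0.40), and the list stood at 10.73 and 10.70 in PC-3 and 10.01 and 10.07 in PC-3-BM. The prostate markers KLK2 and KLK3 did not pass the test. The part of these marker differences in the collagen results was not tested, and in RNA of whole samples fewer cells of a kind and less RNA per cell cannot be told apart.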

How the data were processed

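Total RNA of 2 PC-3 and 2 PC-3-BM samples was amplified, labelled with biotin and hybridised to Affymetrix Human Gene 1.0 ST arrays. The authors deposited log2 expression values, which they made by RMA (robust multichip averaging): background is corrected, the arrays are brought to a common distribution and probes are combined into probe sets, here 33297. Limma 3.24 and R 3.2 stand in the submitters' processing notes. A genome build is not given in the sources used here. RMA gives no detection call, and a shift of all transcripts in 1 line would not be seen. The deposited values were used as they stood, and their medians on the 4 arrays lay between 6.66 and 6.72. Pearson's r across probe sets was 0.996 to 0.997 within a line and 0.983 to 0.985 between lines.

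By the platform annotation, 19460 probe sets had 1 gene symbol, 1754 several and 12083 none. Of the genes, 18389 matched RefSeq by gene identifier, all 49 of the set among them, and RefSeq on GRCh38.p14 gave gene order and promoter windows. Protein sequences were not used here.

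PC-3-BM was compared with PC-3 in limma 3.58.1 under R 4.3.3 (group means, empirical Bayes moderation, two-sided, Benjamini-Hochberg adjustment over all probe sets, adjusted p below 0.05). The fit had 2 residual and 2.88 prior degrees of freedom, and the number of arrays limits its precision. The script was tested on simulated data. The genes and lists were chosen with earlier results of these data known. Values on every array were given for genes of the set past the threshold with an absolute difference of at least 0.5, for the collagen IV pairs and for collagen VI, and further array values and all neighbouring genes were named after their values had been seen. Of pathway and marker lists, up to 3 genes with the largest called differences were named, and some other genes of these lists after their values had been seen. COLGALT2, COL17A1, ITGA1 and TNXB, also on the pathway lists, had no probe set with 1 symbol. Alternatives were 2 rescalings, 2 forms of moderation, filters at means above 5 and 6, probe sets with 1 symbol only, the mean of a gene's probe sets, an adjusted p below 0.01, the array number as a block, and each array left out.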

Additional observations from a re-analysis of the deposited data

How the results depend on the processing

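Of the 18 called genes of the set, 8 kept their call under all 14 alternatives, 0 of the 18 changed direction, and the number of arrays limits the calls. At an adjusted p below 0.01 in place of 0.05, 3 of the 49 genes fell in place of 8, 1 fibrillar chain rose in place of 2, 1 collagen VI chain rose in place of 2, 0 other chains rose and 0 fell, 1 enzyme fell in place of 4, 12 pathway genes rose in place of 22 and 2 fell in place of 8, and 1562 probe sets rose and 1264 fell in place of 3854 and 3863. Whether same-numbered arrays were paired is not stated in the labels. Their deviations from their line's mean correlated at −0.02 over all probe sets, which with 2 arrays per line cannot decide it. With the array number as a replicate block, 5 of the 49 genes fell, 1 collagen VI chain rose, 0 other chains rose and 1 fell, and 2 enzymes fell, with fewer residual degrees of freedom, and 13 of the 18 calls were kept. Of the 19 other chains, 2 rose with the arrays centred on their medians, after quantile normalization, with means above 5 and with 1-symbol probe sets alone, 0 fell after centring, and 1 fell with an intensity trend in the variance. Leaving out 1 array at a time, which leaves a line with a lone array assumed to vary like the other line's, gave 6 to 7 of the 49 genes rising and 2 to 4 falling, 1 fibrillar and 1 collagen VI chain rising, 1 to 2 basement membrane chains falling, 0 other chains rising and 0 to 1 falling, 1 to 2 enzymes falling, 7 to 14 pathway genes rising and 2 to 3 falling, and 1305 to 2109 probe sets rising and 933 to 1745 falling. COL4A4, which passed no test, ranged from −0.009 (without PC-3 array 2) to 0.073 (without PC-3 array 1) when 1 array was left out, and so changed sign. The cause of these changes was not tested beyond the fewer arrays and the stricter threshold themselves.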
